A study of Drosophila melanogaster with 16 samples.

Results

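The regions described here are the 271 windows of 10 kb on chromosome 4 of Drosophila melanogaster, chosen as every chromosome 4 row of a table of 27949 windows that covers the genome in steps of 5 kb (dm3 assembly). Neighbouring windows overlap, so a read was counted in more than 1 window, and windows are not replicates. Of the 271 windows, 247 held at least 100 counts in each of the 2 input columns of the table, and the other 24 reached at most 2.38 CPM (counts scaled to 1e6 per column). The isoform table placed 85 genes on the chromosome.

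Chromatin came from nuclei of adult heads, pooled from many flies, that carried a GFP-tagged nuclear envelope protein (unc84-GFP) and were captured on beads. OK107-GAL4 drove the tag primarily in Kenyon cells, which make up the mushroom body, a brain centre for learned odours; Tdc2-GAL4 drove it primarily in octopaminergic neurons; and R57C10-GAL4 drove it in mature neurons generally. None of the drivers is limited to the cell type it is named for here. The chromatin was cut with micrococcal nuclease and precipitated with antibodies against H3K4me3, H3K27ac or H3K27me3, or sequenced as input. OK107 is itself a GAL4 insertion on chromosome 4, near ey. The window table held OK107 and Tdc2 only: 1 library each of H3K27ac and input, and for H3K27me3 1 OK107 library and a Tdc2 column in which the authors pooled 2 libraries, so window values have no replicate error and no test was made on them. R57C10 and the separate Tdc2 H3K27me3 libraries, called early and late by the date tags of their columns, enter only through counts over gene bodies and promoters.

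Chromosome 4, the dot chromosome, is small and largely packed in heterochromatin, yet it carries many genes that are transcribed. H3K27me3 is laid down by Polycomb complexes over long stretches at silenced developmental genes. H3K27ac is found at active promoters and enhancers, and on the same residue it excludes methylation. ey and toy, the Pax6 genes that head eye development, are also used in the development of Kenyon cells.

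Column totals, which count a read in each window that holds it, were, in units of 1e6 counts, 159.27, 180.7 and 152.1 for H3K27ac, H3K27me3 and input of OK107, against 117.6, 50.443 and 141.04 for Tdc2. Chromosome 4 held 0.457%, 0.740% and 0.573% of the counts in OK107, against 0.531%, 1.05% and 0.721% in Tdc2. Promoters of 4 general neuron markers had a median H3K27ac of 0.86 (OK107), 0.65 (Tdc2), 1.49 (R57C10 early) and 1.31 (R57C10 late) in log2 over input. The 3 octopaminergic markers had medians of -0.25, 0.42, -0.38 and -0.16 in that order. Of these, Tdc2 and Vmat were highest in the Tdc2 line, but Tbh had 0.13 there and 0.67 and 0.46 in R57C10. The 7 Kenyon cell markers had medians of 0.83, 0.18, 0.14 and 0.14. They include ey and toy, so they are no check of cell type apart from the results at these genes. Besides ey and toy, dac and dnc were highest in OK107. For rut, OK107 lay between the R57C10 libraries. The marker mub had 1.26 in OK107 against 1.44 and 1.29 in R57C10, and Imp had -0.75 in OK107 and 0.18 in Tdc2. The medians of the glial, muscle, photoreceptor and fat body lists lay below input in every library, from -1.85 to -0.67 in OK107, -0.70 to -0.16 in Tdc2 and -2.26 to -0.96 in R57C10. Single members stood above input, with the glial marker nrv2 at 0.94 in OK107, 0.64 in Tdc2, and 0.79 and 0.795 in R57C10. The photoreceptor marker trp also stood above input in every library, and inaD (0.63) and moody (0.07) did so in Tdc2.

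The OK107 input was low on chromosome 4. The log2 ratio of OK107 to Tdc2 input had a median of -0.32 over the 271 windows, against -0.01 over 19324 windows of the large autosome arms and -0.04 over 4485 windows of the X. Among the 247 covered windows the ratio was below 0 in 242, while it was below 0 in 53.3% of all windows of the table. Gene bodies gave the same picture, with a median of -0.34 over 84 genes and 82 of them below 0. The third line did not share the OK107 level: over gene bodies the OK107 input had a median of -0.54 against R57C10, and the Tdc2 input had -0.16 against R57C10. The ratio of OK107 to Tdc2 was not even along the chromosome. Its median was -0.59 in the domain at ey, -0.50 in that at pan and -0.38 in that at toy, but -0.15 in that at zfh2 and -0.17 in that at Sox102F, against -0.35 outside all domains. Every mark was therefore set against the input of its own line, as log2((mark CPM + 1)/(input CPM + 1)), called log2 over input below. Within the 55 windows of the domains, the input ratio was set beside the log2 ratio of H3K27me3 CPM without this division. Their correlation was 0.81 (a description over overlapping windows of the same libraries). The part of the input in the differences that remain after the division was not tested.

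The distal end stood apart. The log2 ratio of OK107 to Tdc2 input was -0.37 in the window that starts at 1255001, then -0.52, -0.74, -0.98, -1.88 and -2.28 in the next windows. In the last covered window (1280001 to 1290000) the input was 2.17 CPM in OK107 (95% Poisson interval 1.94 to 2.42) and 14.4 CPM in Tdc2 (13.8 to 15.1), and H3K27me3 was 1.11 CPM in OK107 and 13.1 CPM in Tdc2. At the other end, in the first covered window (50001 to 60000, at plexB), the OK107 input was 2.06 CPM and the Tdc2 input 1.38 CPM. Poisson intervals cover counting error only.

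A window was called enriched when the mark was at least 2-fold over the input of the same line, that is 1 or more in log2, and a domain was a run of at least 2 enriched windows. H3K27me3 was enriched in 44 OK107 windows (16.2%) and in 54 Tdc2 windows (19.9%), and 43 were enriched in both. Across the genome, 9.57% of windows were enriched in OK107 and 6.52% in Tdc2, so the order of the lines on chromosome 4 was opposite to that across the genome. The enriched windows formed 5 domains in OK107 and 7 in Tdc2. The lowest enriched OK107 window had 1.055 and the highest not enriched had 0.96; in Tdc2 these were 1.02 and 0.98.

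The 7 domains each lay on developmental transcription factors. From the proximal end they covered the 5' part of pan (90001 to 110000), the whole of Lin29 with a gene-free stretch and CR43437 beyond it (395001 to 455000), most of zfh2 (505001 to 555000), ey (715001 to 750000), Sox102F and fd102C (815001 to 875000), CG11093, sphinx and toy (980001 to 1030000), and sv with part of Actbeta (1100001 to 1135000). Of 12 transcription factor genes listed for the chromosome, 7 lay by at least 50% of their body in a domain (Lin29, zfh2, ey, Sox102F, fd102C, toy and sv), and pan lay in one by 44.9%. The others, ci, onecut, pho and Mitf, touched no domain. Of 8 genes for secreted factors and receptors, 1 lay in a domain by that measure, the activin ligand gene Actbeta. None of 7 synaptic and neuronal genes touched a domain, nor did 11 of 12 genes for general cell functions; bt, the gene of the giant muscle protein projectin, reached 9.62% into the ey domain. Over all 85 genes, 13 lay in a domain by at least 50%.

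**Figure D1:**
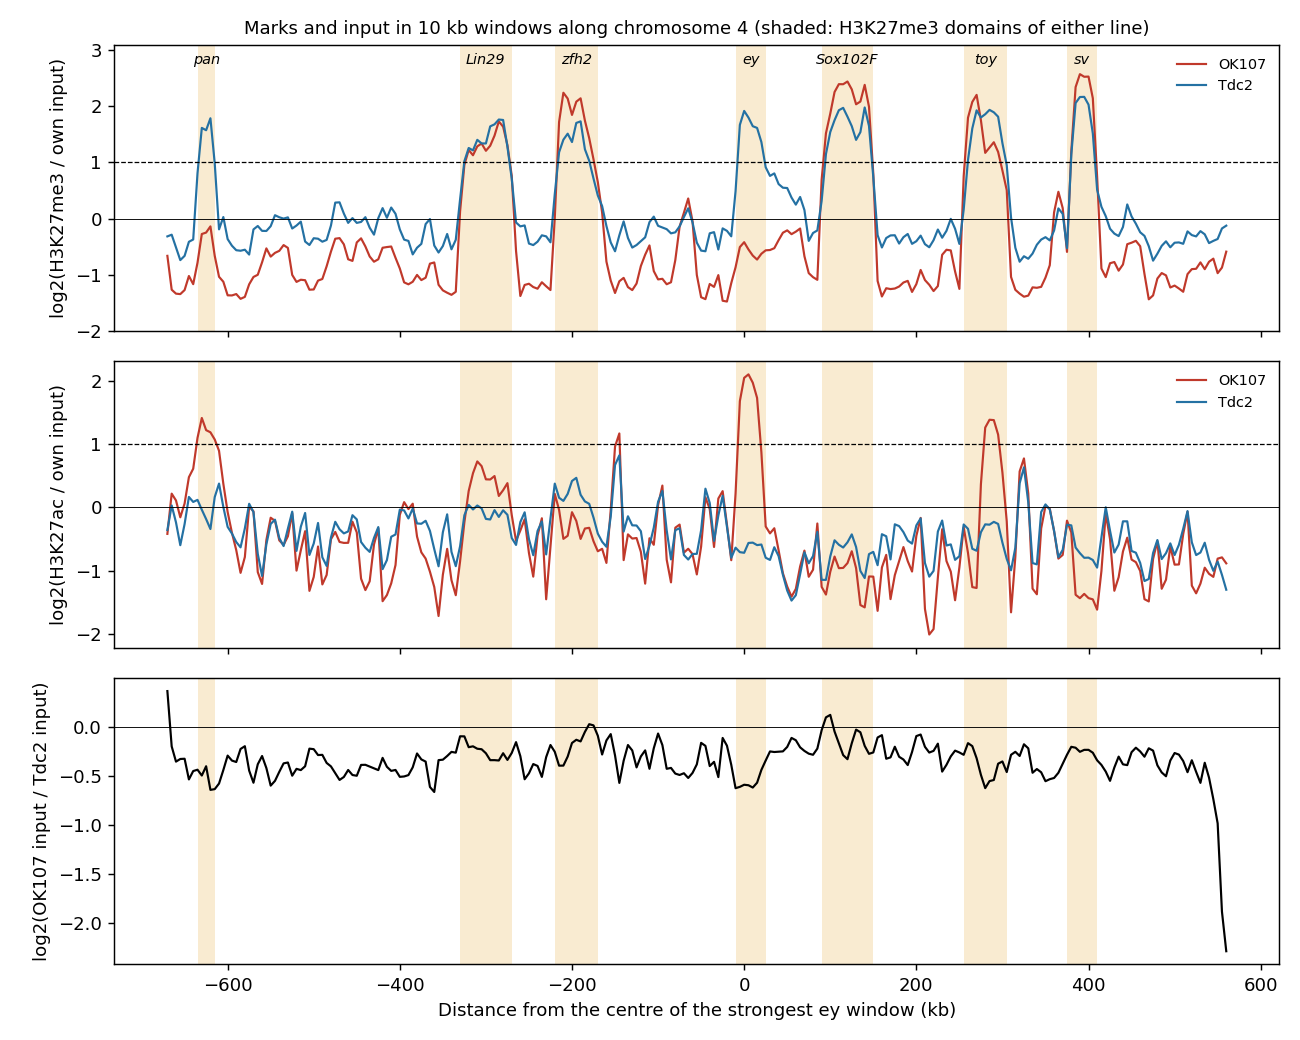
Log2 of H3K27me3 (top) and H3K27ac (middle) over the input of the same line, for OK107 (red) and Tdc2 (blue), and log2 of OK107 over Tdc2 input (bottom), in the 247 covered windows of chromosome 4, by distance in kb from the centre of the strongest ey window. Shading marks the 7 H3K27me3 domains of either line and the dashed line the 2-fold threshold: at pan and ey H3K27me3 was above the line in Tdc2 only, and the input ratio was below 0 nearly throughout.

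The domain at ey was marked in opposite ways in the lines. In the strongest window (720001 to 730000, inside ey), H3K27me3 was 19.7 CPM in OK107 (19.1 to 20.4) and 157 CPM in Tdc2 (154 to 161). H3K27ac in that window was 114 CPM in OK107 (112 to 116) and 24.4 CPM in Tdc2 (23.5 to 25.3), with inputs of 26.8 CPM in OK107 and 40.8 CPM in Tdc2. Over the 6 windows of the domain H3K27me3 averaged -0.58 in OK107 and 1.67 in Tdc2 in log2 over input. None of them was enriched in OK107. All 6 were enriched in Tdc2 by definition, because the domain was called from Tdc2 alone. H3K27ac averaged 1.74 in OK107 and -0.62 in Tdc2. The difference of OK107 minus Tdc2 lay between -2.35 and -1.99 for H3K27me3 and between 1.46 and 2.77 for H3K27ac. Neighbouring windows overlap, so these ranges do not repeat a measurement. Because each library is a bulk of many nuclei, fewer cells that carry a mark and less mark per cell cannot be told apart.

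The difference ran past the ey domain on its distal side, over bt. Proximally, a 2-fold difference outside the domain was limited to the window from 710001, which shares 5 kb with the domain. In the window from 710001, which also holds part of myoglianin, the gene of a TGF-beta family ligand, H3K27me3 was 7.44 CPM in OK107 and 32.4 CPM in Tdc2, a difference of -1.36 over input. On the distal side, over bt, H3K27me3 was 18.7, 23.5 and 17.0 CPM in OK107 in the windows from 745001, 750001 and 755001, against 68.9, 71.8 and 53.4 CPM in Tdc2, and the differences were -1.48, -1.32 and -1.33. The window from 745001 shares 5 kb with the domain, and those from 750001 and 755001 do not overlap it. In all 4 windows Tdc2 was above input but under 2-fold, and OK107 was below input.

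The domain at pan, which encodes the TCF transcription factor of Wnt signalling, was the other one present in Tdc2 and absent in OK107. It too was called from Tdc2 alone. In the window from 100001 to 110000, H3K27me3 was 6.99 CPM in OK107 (6.61 to 7.39) and 46.4 CPM in Tdc2 (44.6 to 48.4), with inputs of 7.80 CPM in OK107 and 12.7 CPM in Tdc2. H3K27ac was 19.1 CPM in OK107 and 9.84 CPM in Tdc2. Over the 3 windows H3K27me3 averaged -0.22 in OK107 and 1.66 in Tdc2, and H3K27ac averaged 1.28 in OK107 and -0.19 in Tdc2, all in log2 over input. The difference in H3K27me3 over input was also large beside the domain, with -1.60 in the window from 85001, which also holds the ribosomal protein gene RpS3A, and -1.65, -0.85, -1.15 and -1.002 in those from 105001, 110001, 115001 and 120001 in pan. The windows from 85001 and 105001 share 5 kb with the domain, and those from 110001, 115001 and 120001 do not overlap it.

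At toy both marks were enriched in OK107. The domain fell into 2 stretches. Its proximal part, over CG11093 (named fuss in RefSeq), held H3K27me3 in both lines: in the window from 980001 it was 95.1 CPM in OK107 and 63.1 CPM in Tdc2, and H3K27ac was 15.8 CPM in OK107 and 23.6 CPM in Tdc2. Over toy, in the window from 1005001 to 1015000, H3K27me3 was 52.7 CPM in OK107 (51.6 to 53.8) and 125 CPM in Tdc2 (121 to 128), while H3K27ac was 57.4 CPM in OK107 (56.3 to 58.6) and 26.1 CPM in Tdc2 (25.2 to 27.1). There OK107 had 1.27 of H3K27me3 and 1.39 of H3K27ac in log2 over input, and Tdc2 had 1.94 and -0.27. In 4 windows at toy OK107 passed the threshold with both marks, and no other window of the chromosome did so. These values do not show both marks on the same nucleosomes or in the same cells.

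**Figure D2:**
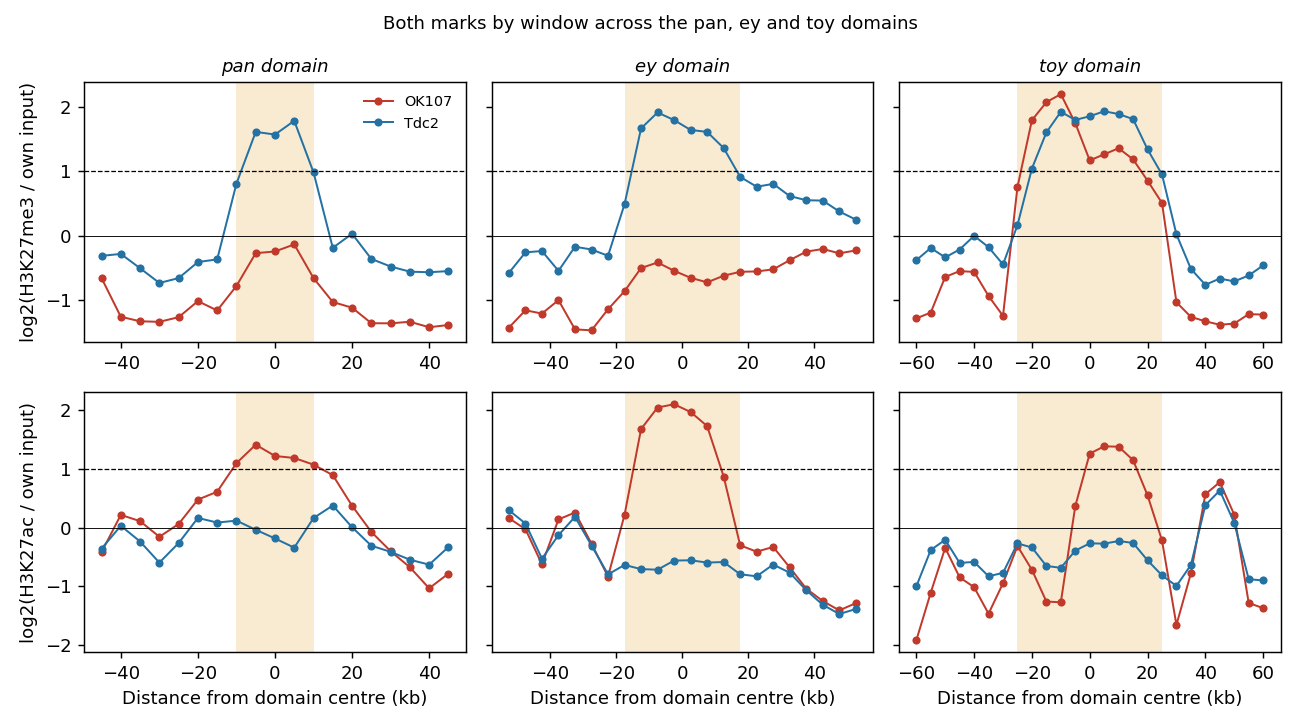
H3K27me3 (upper row) and H3K27ac (lower row) in log2 over the input of the same line, by window, for OK107 (red) and Tdc2 (blue), across the pan, ey and toy domains (shaded), by distance in kb from the domain centre; the dashed line is the 2-fold threshold. In the ey window with the highest Tdc2 H3K27me3, OK107 H3K27ac was 2.05 and Tdc2 H3K27me3 was 1.92, and at toy both marks of OK107 stood above the line in the distal part.

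The other 4 domains were enriched for H3K27me3 in both lines. At Sox102F and fd102C, a SOX and a forkhead gene, H3K27me3 averaged 2.15 in OK107 and 1.67 in Tdc2, and the window from 845001 in Sox102F held 188 CPM in OK107 and 134 CPM in Tdc2. At sv, the Pax2 gene of the fly, it averaged 2.22 in OK107 and 1.85 in Tdc2. At zfh2, a zinc finger homeodomain gene, it averaged 1.82 in OK107 and 1.32 in Tdc2; the largest excess of OK107 on the chromosome, 0.84 over input, lay just upstream of it in the window from 510001, which overlaps no gene, with 120 CPM in OK107 and 88.5 CPM in Tdc2. In these 3 domains H3K27ac was lower in OK107 than in Tdc2, with averages of -1.08 in OK107 and -0.74 in Tdc2 at Sox102F, -1.25 in OK107 and -0.68 in Tdc2 at sv, and -0.33 in OK107 and 0.17 in Tdc2 at zfh2. At Lin29 (CG2052, the zinc finger gene named dati in RefSeq) H3K27me3 averaged 1.33 in OK107 and 1.43 in Tdc2, but H3K27ac was 0.38 in OK107 and -0.08 in Tdc2. Windows of the large arms enriched for H3K27me3 in either line (2162 windows) had a median difference of 0.47 in H3K27me3 and -0.48 in H3K27ac, so an excess of OK107 H3K27me3 and a deficit of H3K27ac of this size were usual for such windows across the arms. Set against windows of the large arms of the same mean enrichment, the median difference in H3K27ac was 0.04 at Sox102F, -0.20 at sv, -0.47 at zfh2 and 0.51 at Lin29.

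H3K27ac was low over most of the chromosome in both lines. Outside the domains its median was -0.68 in OK107 and -0.48 in Tdc2, in log2 over input, while windows of the large arms without H3K27me3 had 0.10 in OK107 and 0.12 in Tdc2. In OK107, 15 windows (5.54%) were enriched for H3K27ac, against 3.32% of the table. They made 3 runs, at RpS3A and pan (85001 to 115000), at myoglianin and ey (715001 to 745000) and at toy (1000001 to 1025000), and 1 window apart from these. In Tdc2 no window of the chromosome was enriched, against 0.261% of the table. The highest Tdc2 value was 0.82, in the window from 575001 at Thd1 and Pur-alpha, where OK107 stood above the threshold with the window apart; the highest OK107 value below the threshold was 0.96, in the window before it.

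In H3K27me3 over input, 29 windows (10.7%) were at least 2-fold lower in OK107 than in Tdc2, against 2.20% of the table, and none was 2-fold higher, against 2.65% of the table. Of the 29, 9 lay in the domains at pan and ey. Another 8 flanked those domains, and those at a domain edge share 5 kb with the domain. The other 12 were scattered over genes such as CaMKI, CG11360, eIF4G, plexA and cals, with differences between -1.29 and -1.005. The whole chromosome outside the domains was shifted: its median difference was -0.70, against -0.45 for windows of the large arms without the mark. Set against windows of the large arms of the same mean enrichment, an alternative added after the data were seen, the median outside the domains was -0.25 and 19 windows (7.01%) were 2-fold lower. These were the 9 windows of the domains at pan and ey, 7 that flanked them and 3 in that at toy, and none of the 12 scattered windows was among them. On that scale the domain medians were -2.84 at ey, -2.34 at pan, -0.87 at toy and -0.47 at Lin29, and between -0.01 and 0.09 at sv, Sox102F and zfh2. Without division by the input, 126 windows (46.5%) were lower in OK107 by CPM, against 4.32% of the table, and none was higher, against 2.74%.

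In H3K27ac over input, 14 windows (5.17%) were at least 2-fold higher in OK107, against 0.193% of the table, and none was 2-fold lower, against 1.22%. They were 6 windows at ey, 5 at toy and 3 at pan, all inside H3K27me3 domains. The largest deficit of OK107 was -0.92 in the window from 940001 at eIF4G, a translation initiation factor, with 7.58 CPM in OK107 and 18.3 CPM in Tdc2. The log2 ratios of OK107 to Tdc2 in CPM, without division by the input, were also compared between the 2 marks. Across the 55 windows of the domains their Pearson correlation was -0.91 (Spearman -0.77), and -0.90 in the 27 that do not overlap. Across the 192 covered windows outside the domains it was 0.16, and across all 247 covered windows it was -0.31 (Spearman -0.0008). The 55 windows were chosen by H3K27me3, and those at pan and ey were called from Tdc2 alone. The points share libraries, and these values describe CPM ratios, not the differences over input.

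**Figure D3:**
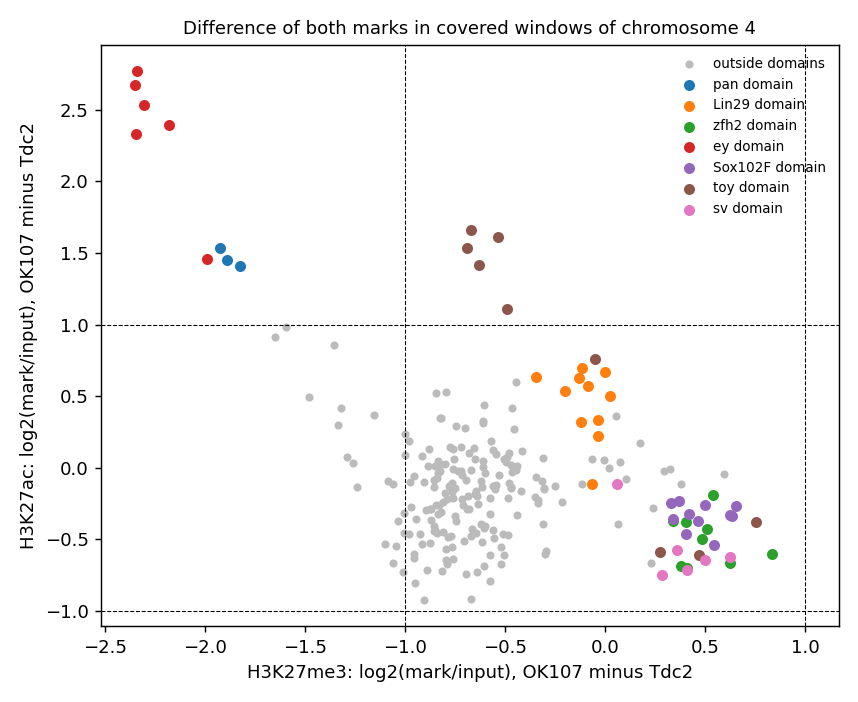
Difference of OK107 minus Tdc2 in log2 over input for H3K27me3 (horizontal) and H3K27ac (vertical) in the 247 covered windows; each point is 1 window, coloured by domain, and dashed lines mark 2-fold. The windows at ey and pan lie at upper left, 5 windows at toy lie between 1.11 and 1.66 in H3K27ac with H3K27me3 between -0.69 and -0.49, and no window passes -1 in H3K27ac or 1 in H3K27me3.

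Counts over gene bodies brought in replicates and the third line. H3K27me3 of all 3 lines (1 OK107, 2 Tdc2 and 2 R57C10 libraries) was fitted in a single model with edgeR's quasi-likelihood test over 14585 genes, 84 of them on chromosome 4, and a gene was called at a Benjamini-Hochberg adjusted p under 0.05. Nothing in the labels says that replicates were separate preparations, so p-values measure only how far these libraries differ, and that spread may be technical. For H3K27me3, OK107 and Tdc2 early carry the same date tag, Tdc2 late carries another, and the R57C10 libraries share a tag with neither line, so line and date tag cannot be told apart in comparisons with R57C10. Levels are TMM-scaled CPM over the gene body. For gene bodies, log2 over input sets these levels against input CPM by column total, so the place of 0 depends on the scaling. The median absolute log2 difference between replicates over the 84 genes was 0.19 in Tdc2 and 0.17 in R57C10.

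For ey (CG1464, chromosome 4, 718315 to 741787), H3K27me3 was 159 CPM in OK107, 878 and 940 CPM in Tdc2, and 1377 and 1943 CPM in R57C10. OK107 lay far below both other lines. The log2 fold of OK107 was -2.52 ± 0.24 against Tdc2 (SE, edgeR adjusted p = 7.84e-05) and -3.39 ± 0.25 against R57C10 (edgeR adjusted p = 0.0002). Inputs were 174 CPM in OK107, 270 CPM in Tdc2 and 301 CPM in R57C10, and with the inputs as an offset the folds were -1.89 and -2.60, both still called. Within the shared date tag, that is without Tdc2 late, the fold against Tdc2 was -2.47.

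For pan (CG34403, 89956 to 134454), Tdc2 was the line that differed, but its rise against R57C10 was not particular to pan. H3K27me3 was 109 CPM in OK107, 343 and 365 CPM in Tdc2, and 134 and 177 CPM in R57C10. Tdc2 rose by 1.19 ± 0.15 against R57C10 (log2, edgeR adjusted p = 0.000207), and OK107 fell by 1.70 ± 0.20 against Tdc2 (edgeR adjusted p = 0.000157). Within the date tag that OK107 and Tdc2 early share, the fold was -1.655. Between OK107 and R57C10 the fold was -0.51 ± 0.19 and was not called (edgeR adjusted p = 0.292), and with the inputs as an offset it was 0.13. In log2 over input the gene body had -0.44 in OK107, 0.69 and 0.77 in Tdc2, and -0.79 and -0.40 in R57C10, so Tdc2 alone stood above input. The rise of Tdc2 against R57C10 was largest at pan, but Pur-alpha (1.18), pncr013:4 (1.17) and CG2219 (1.14), outside all domains, were close. With the inputs as an offset pan had 1.315, below Pur-alpha (1.59), CG2219 (1.51), pncr013:4 (1.46) and Crk (1.36). The 71 genes mostly outside the domains, pan among them, had a median of 0.67, and 0.83 with the offset.

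For toy (CG11186, 1010354 to 1026929), H3K27me3 was 332 CPM in OK107, 464 and 483 CPM in Tdc2, and 596 and 874 CPM in R57C10. OK107 fell by 1.15 ± 0.22 against R57C10 (edgeR adjusted p = 0.0208), but with the inputs as an offset the fold was -0.50 ± 0.21 and was not called (edgeR adjusted p = 0.289). Against Tdc2 the fold of OK107 was -0.51 ± 0.21 and was not called (edgeR adjusted p = 0.152), although it was called by column totals (-0.91), with scaling along enrichment (-1.58) and without either R57C10 library. The gene stood well above input in all 3 lines, at 1.65 in OK107, 1.67 and 1.73 in Tdc2, and 1.84 and 2.39 in R57C10 (log2).

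The remaining factors in domains were marked in every line. fd102C had 459 CPM in OK107, 222 and 229 CPM in Tdc2, and 432 and 617 CPM in R57C10. Sox102F had 2013 CPM in OK107, 1077 and 1150 CPM in Tdc2, and 1389 and 2075 CPM in R57C10. sv had 1290 CPM in OK107, 765 and 804 CPM in Tdc2, and 1072 and 1614 CPM in R57C10. In all 3 genes OK107 lay above both Tdc2 libraries and between the R57C10 libraries. zfh2 had 1528 CPM in OK107, 823 and 912 CPM in Tdc2, and 1523 and 2091 CPM in R57C10. Lin29 had 582 CPM in OK107, 462 and 519 CPM in Tdc2, and 949 and 1283 CPM in R57C10, with OK107 and Tdc2 both below R57C10. OK107 against Tdc2 was called higher for fd102C (1.03 ± 0.20, edgeR adjusted p = 0.00329), Sox102F (0.85 ± 0.22, adjusted p = 0.0176), zfh2 (0.82 ± 0.20, adjusted p = 0.0143) and sv (0.72 ± 0.22, adjusted p = 0.0428). It was not called for Lin29 (0.25 ± 0.20, adjusted p = 0.465), which fell by 0.94 ± 0.21 in OK107 against R57C10 (edgeR adjusted p = 0.0382). These 4 calls against Tdc2 also passed with the inputs as an offset. Without Tdc2 early or Tdc2 late, the fold was 0.74 or 0.89 for zfh2, 0.81 or 0.90 for Sox102F and 0.68 or 0.75 for sv, about as large, but none of the 3 was called (edgeR adjusted p between 0.086 and 0.178). Those fits set 1 OK107 library against 1 Tdc2 library and take the spread from R57C10 alone. fd102C stayed called in both. With scaling along enrichment each of them had a negative sign, and no gene of the chromosome was higher in OK107.

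**Figure D4:**
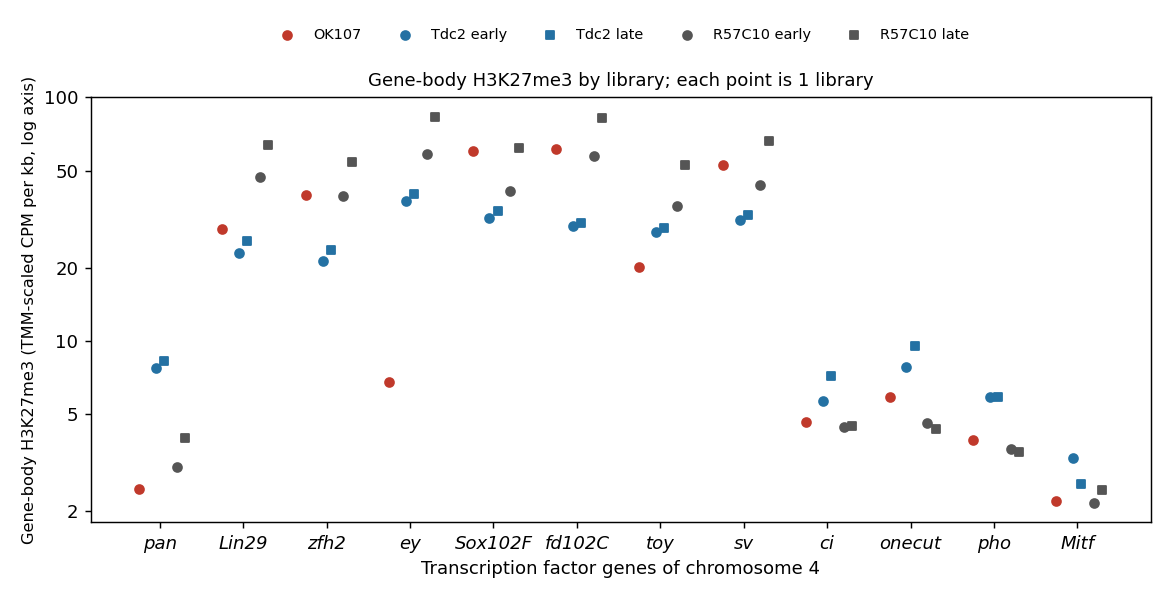
Gene-body H3K27me3 in TMM-scaled CPM per kb (log axis) for the 12 listed transcription factor genes of chromosome 4; each point is 1 library of OK107 (red), Tdc2 (blue) or R57C10 (grey). OK107 is low at ey, with 6.76 CPM per kb against at least 37.4 in every other library. At pan Tdc2 lies above the other lines, with 7.76 and 8.26 CPM per kb. The genes pan, ci, onecut, pho and Mitf all stay under 10 CPM per kb in every library, and onecut has 7.78 and 9.52 in Tdc2.

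Over the 84 genes, OK107 against Tdc2 gave 8 higher and 33 lower, against 14.0% higher and 1.46% lower of all genes tested. The 8 higher genes were all among the 13 that lay in domains by at least 50%, and 32 of the 33 lower, pan included, were among the other 71. With the inputs as an offset the counts were 11 higher and 3 lower (ey, pan and CaMKI, the last a calcium and calmodulin dependent kinase gene). Over all 14585 genes that fit gave 1716 higher and 137 lower, so the share of higher calls was close to that of all genes. Most of the lower calls on the chromosome were lost when the low OK107 input was taken into account. Tdc2 against R57C10 gave 47 higher and 12 lower, against 4.95% and 14.7% of all genes. The 12 lower were all among those 13 genes, and the 47 higher, pan included, were all among the other 71. The domains were called from the same OK107 and Tdc2 H3K27me3 libraries, so both splits by domain are a description. Windows of the large arms split likewise, with a median of OK107 minus Tdc2 of 0.47 with the mark and -0.45 without it. With scaling along enrichment, Tdc2 against R57C10 gave 36 higher and no lower call, against 943 higher and 896 lower of all genes. OK107 against R57C10 gave 5 lower (ey, toy, Lin29, CR43437 and bt), against 0.617% of all genes, and none higher, against 1.57%. At an unadjusted p under 0.05 there were 7 genes, all lower, and DESeq2 also gave 5 lower and none higher. With the inputs as an offset 12 genes were higher and ey alone was lower, against 342 higher and 163 lower of the 14585 genes.

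By list, OK107 against Tdc2 was higher for 4 and lower for 2 (ey and pan) of 12 transcription factors, with a median log2 fold of -0.45. It was lower for 6 of 7 synaptic and neuronal genes (median -0.76), 4 of 8 genes for secreted factors and receptors (-0.68) and 4 of 12 general genes (-0.63), with a median of -0.59 over the 84 genes and -0.04 over all genes tested. With the inputs as an offset the neuronal list had 1 lower of 7 and a median of -0.40. Tdc2 against R57C10 was higher for 6 of the 7 neuronal genes, among them unc-13, Syt7 and Caps, which act in transmitter release (median 0.94, against 0.58 over the 84 genes and 0.04 over all genes tested). Their bodies lay outside the domains.

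Promoters of the same genes were described without a test, in log2 over input with H3K4me3 added. At the ey promoter H3K27ac was 2.10 in OK107, -0.82 in Tdc2, and -0.31 and -0.30 in R57C10. H3K4me3 was 1.86 in OK107, -0.28 in Tdc2, and -0.04 and -0.77 in R57C10, so OK107 alone stood above input with both marks. At the pan promoter H3K27ac was 1.22 in OK107, -0.14 in Tdc2, and 1.27 and 1.16 in R57C10. H3K4me3 there was 1.13 in OK107, -0.07 in Tdc2, and 1.07 and 0.95 in R57C10, so Tdc2 alone was near input. At the toy promoter H3K27ac was 0.93 in OK107, -0.21 in Tdc2, and -0.24 and -0.10 in R57C10, and H3K4me3 was 0.57 in OK107, 0.17 in Tdc2, and -0.21 and -0.54 in R57C10. The promoters of sv and fd102C lay below input with both marks in every library. Of the other shared-domain factors, Lin29 had H3K27ac of 0.49 in OK107, -0.43 in Tdc2, and -0.39 and -0.31 in R57C10, with H3K4me3 below input in every library. zfh2 had H3K27ac of -0.48 in OK107, 0.06 in Tdc2, and -0.39 and -0.67 in R57C10, and Sox102F had -0.68 in OK107, -0.68 in Tdc2, and 0.25 and 0.09 in R57C10; their H3K4me3 lay below input in every library. The 4 factors that touch no domain differed among themselves. onecut had H3K27ac of 0.72 in OK107, 0.62 in Tdc2, and 1.105 and 1.05 in R57C10, and pho, whose product binds DNA for Polycomb complexes, had 0.57 in OK107, 0.93 in Tdc2, and 0.45 and 0.51 in R57C10. ci, the transcription factor of hedgehog signalling, had H3K27ac near input, at 0.02 in OK107, -0.06 in Tdc2, and 0.03 and -0.28 in R57C10, with H3K4me3 of -2.26 in OK107, -1.19 in Tdc2, and -2.44 and -3.76 in R57C10. Mitf lay below input with both marks in every library, with H3K27ac of -0.91 in OK107, -1.07 in Tdc2, and -0.42 and -0.77 in R57C10. The median promoter of the chromosome had H3K27ac of 0.54 in OK107, 0.29 in Tdc2, and 0.31 and 0.28 in R57C10, although its 10 kb windows were mostly below input. Promoter and window values were scaled to different totals. For H3K4me3 the chromosome median was 0.31 in OK107, 0.49 in Tdc2, and 0.32 and -0.06 in R57C10. Over all genes the H3K4me3 median was -1.49 in OK107, -0.73 in Tdc2, and -1.16 and -2.27 in R57C10. An H3K4me3 value below input can thus lie above the median promoter of its library, and its level over input is not alike between libraries.

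**Figure D5:**
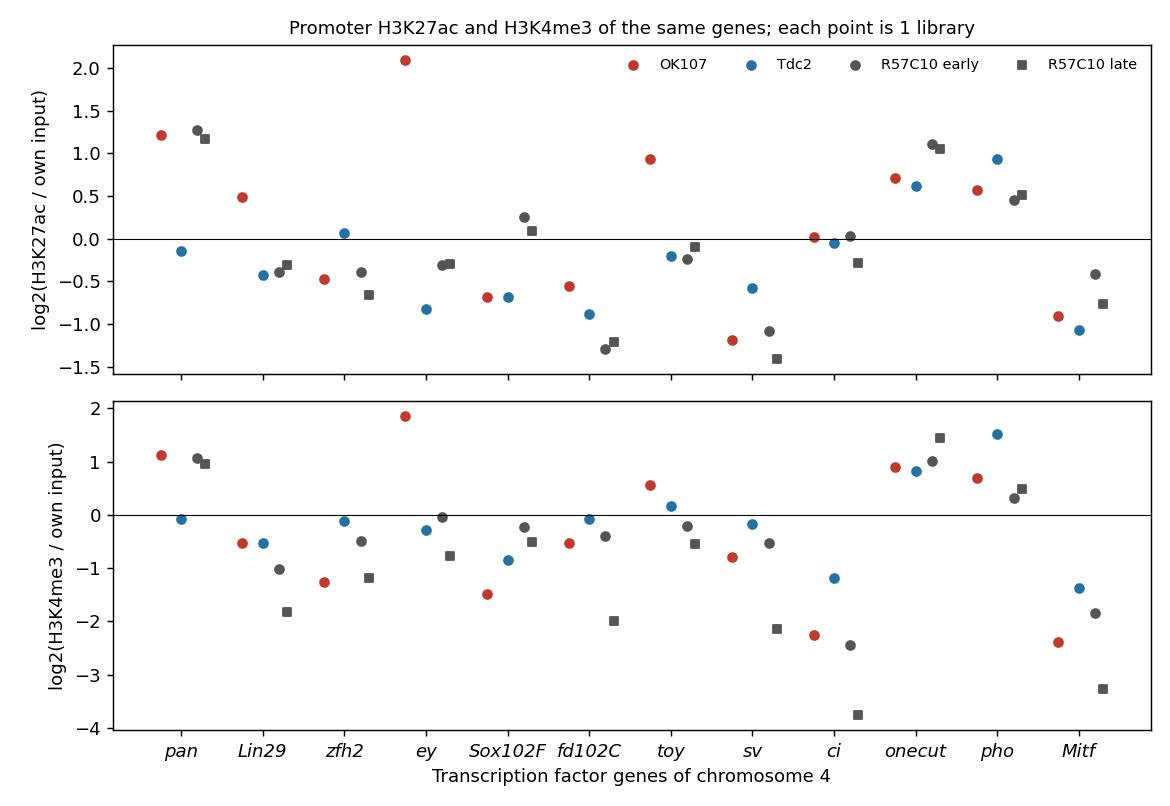
Log2 of H3K27ac (top) and H3K4me3 (bottom) over the input of the same line at the promoters of the 12 listed transcription factor genes; each point is 1 library of OK107 (red), Tdc2 (blue) or R57C10 (grey). OK107 stands above the other lines at ey (2.10 and 1.86) and toy, and Tdc2 stands below the other lines at pan (-0.14 and -0.07).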

How the data were processed

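The deposited values used were raw read counts, made by the authors per 10 kb window (5 kb step) and per annotated isoform, at promoters and over gene bodies. Per the submitters' processing notes, CASAVA 1.8, Bowtie 0.12.7, bedtools 2.15 and the dm3 assembly were used; the handling of reads that match several places, which matters on a repeat-rich chromosome, is not given in the sources used here. Another 60 sample columns of these tables were not used.

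CPM were taken by column total, with a pseudocount of 1 CPM. Enrichment and differences between lines were called at 2-fold. For each gene, the isoform with the largest sum of the mark was kept (H3K27me3 for gene bodies, H3K4me3 for promoters). Gene bodies were fitted with edgeR 4.0.16 in R 4.3.3 (TMM, filterByExpr, all 3 lines in 1 model, 2 residual degrees of freedom), so the lone OK107 library was assumed to vary like the others. The input offset was log2 of the line's input CPM. The SE is the log2 fold divided by the square root of its F statistic. DESeq2 1.42.0 was an alternative. Loess scaling along enrichment removed the trend of the fold on mark over input. Domain calling was tested on planted domains with counting noise. The gene-body fit was tested on simulated counts with means, library sizes and spread taken from the fit to these data. That test therefore assumes this spread. Named were the strongest window of each domain, the 5 largest differences each way, the end windows, listed genes and genes in domains; other genes and windows were chosen after their values were seen. The members and lists were chosen with earlier results of these data known. The planned window tests needed separate Tdc2 libraries and were replaced by fold calls. Gene symbols are those of the files, with RefSeq names where given.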

Additional observations from a re-analysis of the deposited data

Results flagged for a closer look

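Among the 84 genes, 5 genes in 8 comparisons had gene-body H3K27me3 on opposite sides of input in every library of a pair of lines. The difference was also called by edgeR with the inputs as an offset. The mark was TMM-scaled and the input scaled by column total, so the side on which a value near 0 falls depends on the scaling. CG1732 in 1 Tdc2 library (-0.05), RhoGAP102A in OK107 (0.11) and Crk in Tdc2 (0.06 and 0.045) were near 0. Such genes were not counted over all genes tested. At ey, OK107 had -0.13 in log2 over input, Tdc2 1.70 and 1.796, and R57C10 2.19 and 2.69; the fold of OK107 was -1.89 against Tdc2 (adjusted p = 0.000256) and -2.60 against R57C10 (adjusted p = 0.00124). At pan, OK107 had -0.44, Tdc2 0.69 and 0.77, and R57C10 -0.79 and -0.40; the fold of OK107 against Tdc2 was -1.18 (adjusted p = 0.00158) and that of Tdc2 against R57C10 was 1.315 (adjusted p = 0.000131). At CG1732 (named Gat in RefSeq, a GABA transporter gene), OK107 had 0.52, Tdc2 -0.23 and -0.05, and R57C10 -0.48 and -0.19; the fold of OK107 was 0.66 against Tdc2 (adjusted p = 0.036) and 0.86 against R57C10 (adjusted p = 0.0269). At RhoGAP102A, OK107 had 0.11 and R57C10 -1.09 and -0.83, a fold of 1.07 (adjusted p = 0.00838). At Crk, an adaptor protein gene, Tdc2 had 0.06 and 0.045 and R57C10 -1.41 and -1.055, a fold of 1.36 (adjusted p = 0.00322). Without the offset, neither comparison of CG1732 nor that of RhoGAP102A was called (adjusted p between 0.571 and 0.911), while that of Crk was (adjusted p = 0.0314). Inputs were lower in OK107 at CG1732, with 46.7 CPM in OK107, 65.2 CPM in Tdc2 and 70.0 CPM in R57C10; their part in the result was not tested.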

How the results depend on the processing

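The calls at ey and pan named in the text, ey in OK107 against both lines and pan in Tdc2 against both lines, kept their direction and stayed called under every alternative run. In windows, a 3-fold threshold gave 10.3% of windows enriched for H3K27me3 in OK107 and 11.4% in Tdc2. For H3K27ac in OK107, 1.5-fold gave 5 runs, 3-fold gave 1 run and 1.85% of windows, a pseudocount of 5 CPM gave 3.69% and the mean of both inputs 3.32%; in Tdc2, 1.5-fold gave 1.11% and 1 run and the mean of both inputs 0.369%. By CPM alone, H3K27me3 was lower in OK107 in 12.2% (TMM) and 10.7% (RLE) of windows and higher in 0.738% (TMM and RLE), with median differences of -0.56 and -0.53. With the inputs taken into account, both TMM and RLE gave 4.43% lower, with 2.58% and 2.95% higher and medians of -0.23 and -0.20; against windows of the same enrichment 7.01% were lower and the median was -0.22. For H3K27ac the median difference of -0.11 became 0.081 against windows of the same enrichment, and by CPM alone it was -0.46 with 6.27% of windows lower. In gene bodies, OK107 against R57C10 gave 1 lower with RLE, and with the offset 1 lower and 12 higher. Without R57C10 early or late, or 1 Tdc2 library, it gave 4 to 12 lower and 0 to 3 higher; 12 came without R57C10 early and 3 without R57C10 late. Tdc2 against R57C10 gave 24 to 49 higher and 10 to 13 lower when a library was left out, with 24 without R57C10 early, and 0 lower with scaling along enrichment. OK107 against Tdc2 gave 4 higher with RLE, 0 higher with scaling along enrichment, 59 lower by column totals and 3 lower with the offset, and 4 to 9 higher and 32 to 44 lower when a library was left out, with 5 and 4 higher without Tdc2 early and late. Signs that turned, for OK107 against R57C10, were pan (0.13), zfh2 (0.009) and sv (0.61) with the offset and sv (0.10) with scaling along enrichment; without 1 library, zfh2 ranged from -0.50 to 0.005, Sox102F from -0.088 to 0.535, fd102C from -0.47 to 0.088 and sv from -0.37 to 0.27. With scaling along enrichment, Tdc2 against R57C10 had 0.23 for ey, 0.53 for toy, 0.60 for Sox102F, 0.053 for fd102C and 0.53 for sv, and OK107 against Tdc2 had -0.76 for Lin29, -0.19 for zfh2, -0.25 for Sox102F, -0.10 for fd102C and -0.43 for sv; by column totals Lin29 had -0.15. The cause of these changes was not tested. The scaling along enrichment also removes any real change that runs along enrichment. No paired analysis was possible because the columns carry date tags in place of replicate numbers, and the lines compared share at most 1 tag in H3K27me3 (OK107 and Tdc2 early). For windows, DESeq2, filters on counts and leaving out Tdc2 replicates were not run, since the table holds 1 column of each mark and line.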

Other observations

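A pair of promoters, chosen after their values were seen, had more of the active marks over input in Tdc2 than in the other lines. At Eph, which encodes a receptor of axon guidance, H3K27ac was 0.72 in OK107, 2.10 in Tdc2, and 0.01 and -0.14 in R57C10, in log2 over input, and H3K4me3 was 1.26 in OK107, 2.46 in Tdc2, and 0.63 and 0.79 in R57C10. The inputs there were low, with 3.44 CPM in OK107, 3.85 CPM in Tdc2 and 13.9 CPM in R57C10. By CPM, Eph H3K27ac was 6.33 in OK107, 19.8 in Tdc2, and 14.0 and 12.6 in R57C10. H3K4me3 was 9.66 in OK107, 25.6 in Tdc2, and 22.2 and 24.85 in R57C10, so Tdc2 and R57C10 were close in H3K4me3 before division by the input. At Kif3C, a kinesin gene, H3K27ac was -0.16 in OK107, 0.96 in Tdc2, and -0.78 and -0.72 in R57C10, and H3K4me3 was -0.56 in OK107, 0.90 in Tdc2, and -0.77 and -1.26 in R57C10. The inputs there were 5.34 CPM in OK107, 7.20 CPM in Tdc2 and 22.6 CPM in R57C10. By CPM, Kif3C H3K27ac was 4.68 in OK107, 14.9 in Tdc2, and 12.7 and 13.3 in R57C10, so Tdc2 and R57C10 were close before division by the input. With 1 library of each mark in OK107 and in Tdc2, these differences have no replicate check.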
